A study of Mus musculus with 59 samples.

Results

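Of the 4484 genes in the deposited table of mouse medial prefrontal cortex, 49 belonged to the signalling serine/threonine kinase families named by the symbol prefixes Mapk, Map2k, Map3k, Map4k, Camk, Prka, Prkc, Csnk, Cdk, Cdkl, Gsk3, Akt, Rps6k, Mark, Stk and Sik. They were found by symbol alone, and the same prefixes match 186 symbols in the mouse annotation, so the table holds only some members of these families and no Gsk3 gene. By textbook knowledge 39 of the 49 encode kinases or kinase-like proteins. The other 10 share a prefix without being kinases: the AKT substrate Akt1s1, the CaMKII inhibitor Camk2n2, the calmodulin methyltransferase Camkmt, the CDK2-associated protein Cdk2ap1, the MAP kinase binding proteins Mapk1ip1, Mapk8ip1 and Mapk8ip2, and the regulatory subunits Prkag1, Prkag2 and Prkar2a. All 49 passed the filter on low values.

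RNA was sequenced from homogenised tissue of adult wild-type C57BL/6J mice, an inbred strain, with no treatment or mutation named. Animals were killed every 4 h, and the 59 libraries fell into 12 groups of sex by zeitgeber time, the times being ZT2, ZT6, ZT10, ZT14, ZT18 and ZT22. ZT0 is lights on by convention. Each group had 5 libraries except ZT10 females, which had 4. Ages and the lighting schedule are not given in the sources used here, and ZT12 to ZT24 is called the dark phase by convention. Titles carry an animal number that repeats within groups, so p-values measure the spread between libraries, some of which may be technical.

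Protein kinases pass signals on by adding phosphate to serine and threonine residues, and many act in tiers. In the MAP kinase cascades a MAP kinase kinase kinase activates a MAP kinase kinase, which activates a MAP kinase. Calcium, cyclic AMP, lipids and growth factors act through CaMKII, protein kinase A, protein kinase C and AKT, which in cortical neurons set synaptic strength, excitability and growth. Casein kinase 1 phosphorylates the PER proteins of the circadian clock, and the salt-inducible kinases hold back transcription driven by cyclic AMP. The activity of these enzymes is set largely by phosphorylation, second messengers and partners, which RNA levels do not measure.

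The libraries held 6317420 to 13325019 recovered reads (median 9015221), of which 61.4% to 91.2% fell on 6 abundant noncoding genes. The 49 genes together took 18874 to 75150 reads per library, a share of 1.72% to 2.02% of the reads outside those 6. Libraries with serial numbers 49 to 60 (n = 11, 1 from each group except ZT10 females) stood apart from numbers 1 to 48 (n = 48) on the first principal component of deviations from the group means, which held 26.5% of the variance. What the serial number stands for is not given, and times and sexes are balanced over it. Results that rest on these libraries are given with and without them below.

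Across the 24 h, Stk4 was the only member that passed a test for change with time of day. Its 24 h rhythm had an amplitude, from the mean to the peak, of 0.14 ± 0.032 on the log2 scale (SE, 59 libraries), peaking at ZT23.2, which is a 1.22-fold change from trough to peak (limma, adjusted p = 0.0128). It also passed the test for any difference among the 6 times (adjusted p = 0.0285). That is 1 of 49 members, or 2.04%, beside 1.9% of all 4273 genes tested for the rhythm, and 1 of 49 beside 1.05% for the test of any difference among times. At an unadjusted p below 0.05 the rhythm test had 3 members, Stk4, Stk40 and Rps6ka4, beside 11.4% of all genes. The test of any difference among times had 2, Stk4 and Map4k2, beside 9.76%. The members' share of calls was therefore near the background.

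Stk4 encodes MST1, the kinase at the head of the Hippo pathway, which through the LATS kinases keeps the co-activators YAP and TAZ out of the nucleus. The gene lies on the plus strand at chr2:164070322-164155524 (GRCm38, GENCODE annotation) and shares no exonic base with another gene. Promoter sequence is shown for Stk4 and for the pair of members next in order of rhythm p, Stk40 and Rps6ka4, as the 250 bases before the RefSeq start on GRCm38.p6. The windows are chr2:164073888-164074137 on the plus strand for Stk4, chr4:126103707-126103956 on the plus strand for Stk40 and chr19:6840628-6840877 on the minus strand for Rps6ka4. The Stk4 window lies inside the annotated span of the gene, another transcript of which starts upstream, and holds no annotated exon. Capitals mark the E-box CACGTG, the letters bound by the clock proteins CLOCK and BMAL1, and the cyclic AMP response element core TGACG, read as CGTCA where it lies on the other strand.
Stk4: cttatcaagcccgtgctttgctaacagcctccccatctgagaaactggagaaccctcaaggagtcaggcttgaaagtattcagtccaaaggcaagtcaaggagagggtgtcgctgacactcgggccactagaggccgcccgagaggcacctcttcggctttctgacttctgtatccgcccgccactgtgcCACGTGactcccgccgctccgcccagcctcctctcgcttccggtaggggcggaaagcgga
Stk40: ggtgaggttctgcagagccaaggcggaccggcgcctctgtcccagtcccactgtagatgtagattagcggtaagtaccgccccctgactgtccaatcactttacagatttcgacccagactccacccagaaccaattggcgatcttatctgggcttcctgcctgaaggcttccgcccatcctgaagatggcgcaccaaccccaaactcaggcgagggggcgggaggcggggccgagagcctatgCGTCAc
Rps6ka4: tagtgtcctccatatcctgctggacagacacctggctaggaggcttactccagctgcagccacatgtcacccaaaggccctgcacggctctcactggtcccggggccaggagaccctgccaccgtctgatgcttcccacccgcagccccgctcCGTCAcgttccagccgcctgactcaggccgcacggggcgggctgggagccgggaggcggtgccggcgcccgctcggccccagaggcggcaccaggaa
The E-box in the Stk4 window began 60 bases before the start. The CGTCA in the Stk40 window began 6 bases before it and that in the Rps6ka4 window 97 bases before it. Both strands were searched in windows of the same length, and the 2 motifs do not overlap here. CACGTG was found in 6 of the 41 members with a RefSeq promoter (Cdk18, Cdk6, Mapk12, Prkaca, Sik3 and Stk4; 14.6%), in 9.73% of 3205 tested genes and in 6.02% of all 32851 promoters. TGACG was found in 16 of 41 members (39%), 32.4% of tested genes and 17.8% of all promoters. These matches are letters in a window, and no binding was measured.

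Values by time are log2 of the scaled read count plus 1, over both sexes, and Stk4 had 303 to 975 recovered reads in each library. At ZT2 Stk4 ranged from 10.50 to 11.02 with a median of 10.78, and at ZT6 from 10.32 to 10.88 with a median of 10.56 (n = 10 each). At ZT10 it ranged from 10.51 to 10.88 with a median of 10.59 (n = 9). These daytime groups overlapped widely. At ZT14 it was at its lowest, from 10.12 to 10.77 with a median of 10.50, and at ZT18 it ranged from 10.37 to 10.84 with a median of 10.72 (n = 10 each). At ZT22 it was at its highest, from 10.63 to 10.94 with a median of 10.87 (n = 10). The ZT22 mean of 10.84 ± 0.10 (SD) was 0.34 above the ZT14 mean of 10.49 ± 0.16, a 1.27-fold difference. Of the 10 libraries of ZT22, 8 lay above every ZT14 library and all 10 above the ZT14 median, so the groups overlapped at the edge.

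**Figure D1:**
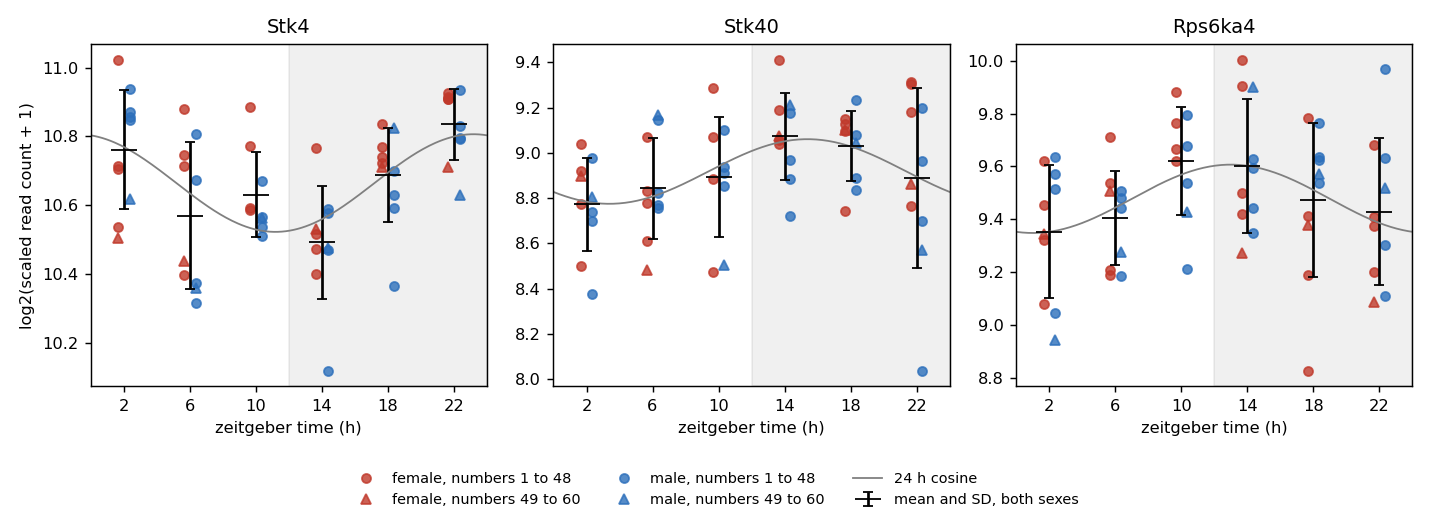
Log2(scaled read count + 1) of Stk4, Stk40 and Rps6ka4 in each library (vertical axis) against zeitgeber time in hours (horizontal axis), with red for females, blue for males and triangles for serial numbers 49 to 60. Black bars are means and SD of both sexes, the grey curve is the fitted 24 h cosine and grey shading is the dark phase by convention; Stk4 is lowest at ZT14 and highest at ZT22.

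The Stk4 rhythm was called in every fit that left out 1 of the 59 libraries (adjusted p from 0.00483 to 0.0267, amplitude from 0.13 to 0.15). The test for any difference among times held in 58 of them. It was lost without the ZT14 male library with serial number 43, the lowest Stk4 value of all at 10.12 (limma, adjusted p = 0.0546). Without serial numbers 49 to 60 the amplitude was 0.16 with a peak at ZT23.9 (adjusted p = 0.017). In numbers 49 to 60 alone, with 1 library a group, it was 0.16 with a peak at ZT19.7 (adjusted p = 0.68). Scaling by the library total, which includes the 6 noncoding genes, kept the amplitude at 0.18 and the peak at ZT23.2 but lost the call (adjusted p = 1). Under that scaling 3 genes of the whole table were called.

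In females the Stk4 amplitude was 0.11 ± 0.046, peaking at ZT22.4, and in males it was 0.18 ± 0.044 with a peak at ZT23.7 (limma interaction, adjusted p = 0.784). The 5 female libraries of ZT22 had 10.71, 10.91, 10.91, 10.91 and 10.93, and the 5 male libraries 10.63, 10.79, 10.80, 10.83 and 10.94. The 5 female libraries of ZT14 had 10.40, 10.47, 10.52, 10.53 and 10.77, and the 5 male libraries 10.12, 10.47, 10.48, 10.58 and 10.59. Within each sex, 4 or 5 of the ZT22 libraries lay above all those of ZT14. Stk4 was 0.072 ± 0.043 lower in males over all times (difference -0.072, interval -0.16 to 0.013, adjusted p = 0.999).

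Just outside the threshold, Stk40, a kinase-like protein, had an amplitude as large as that of Stk4 with a wider error, 0.14 ± 0.045, and a peak at ZT15.4 (adjusted p = 0.188). Its lowest, median and highest values were 8.38, 8.79 and 9.04 at ZT2 and 8.72, 9.06 and 9.41 at ZT14. The ZT14 mean was 0.30 above that of ZT2, with 7 of 10 ZT14 libraries above every ZT2 library. A male library of ZT22, at 8.04, had the lowest Stk40 value of all. Rps6ka4, which encodes MSK2, a kinase of histone H3 and CREB downstream of MAP kinases, had an amplitude of 0.13 ± 0.045, peaking at ZT13.0 (adjusted p = 0.29). It ranged from 8.94 to 9.64 with a median of 9.40 at ZT2 and from 9.21 to 9.88 with a median of 9.66 at ZT10, and these groups overlapped. Of its exonic bases 19.8% are shared on the same strand with other annotated genes, so reads there cannot be told apart. The Ste20-type kinase Map4k2 came next, at 0.11 ± 0.044 with a peak at ZT13.7 (adjusted p = 0.471).

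Over all 49 members, Stk4 among them, the fits bounded how large a 24 h rhythm could be. The median amplitude of the 49 was 0.065, beside 0.076 over all genes tested. The upper 95% limit of the amplitude had a median of 0.22, beside 0.24 over all genes. It was below 0.25 for 35 members and below 0.15 for 11. Expressed from trough to peak, the upper limit was under 1.5-fold for 41 members. The 8 members with wider limits were Cdk18, Cdk6, Map3k14, Map3k9, Mapk12, Mapk7, Mark4 and Prkca. Fitted peaks fell between ZT12 and ZT24 in 34 of 49 members (69.4%), beside 49.4% of all genes, although all but 1 of these peaks belong to rhythms that did not pass the test. For no member did the libraries of its highest and lowest times separate fully, and this was not counted over all genes.

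**Figure D2:**
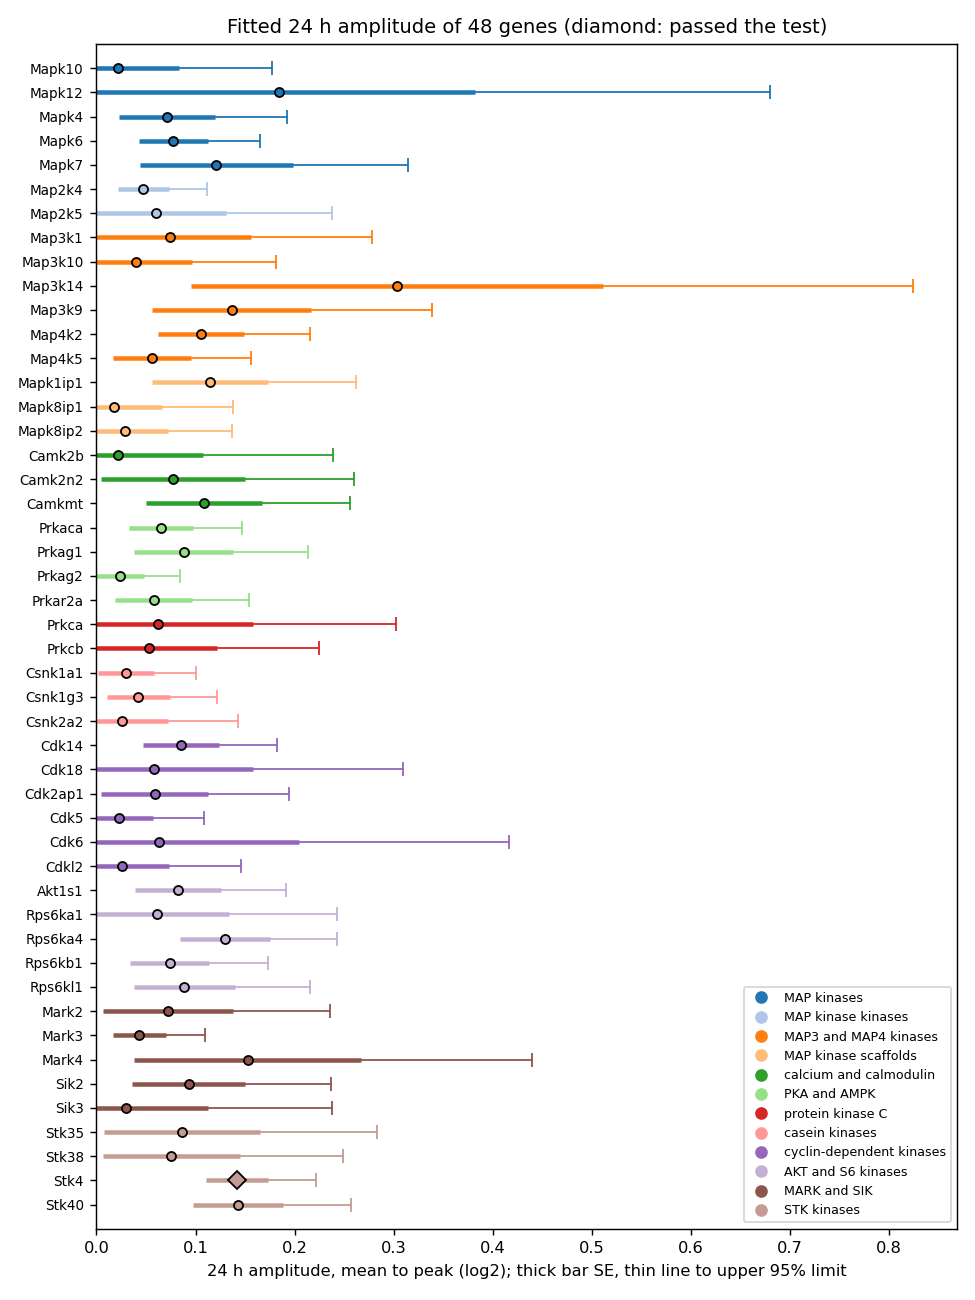
Fitted 24 h amplitude on the log2 scale (horizontal axis) of 48 of the 49 genes (vertical axis), coloured by family, with the SE as a thick bar and a thin line to the upper 95% limit. Stk4, the diamond, is the only member past the test, and the widest limits belong to Map3k14 and Mapk12, which averaged 6.41 and 8.47 reads.

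Among the 5 MAP kinases none passed the rhythm or time test. Mapk6 and Mapk4, the atypical ERK3 and ERK4, had amplitudes of 0.078 ± 0.035 and 0.071 ± 0.048. Mapk10 encodes JNK3, the neuronal stress-activated kinase, and its amplitude of 0.021 ± 0.062 was among the smallest. Mapk7, which encodes ERK5, had 0.12 ± 0.077 with a peak at ZT5.9. Mapk12 (p38 gamma) had an amplitude of 0.18 ± 0.20, and its count was 0 in 1 library, a male of ZT10.

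The kinases above them in the cascades did not pass either. Map2k4, which activates JNK, was measured tightly, with time means up to 11.82 ± 0.13 at ZT14 and down to 11.67 ± 0.11 at ZT2 (SD, n = 10) and an upper limit of 0.11 for the amplitude. Map2k5, the activator of ERK5, had an amplitude of 0.060 ± 0.071. Of the 6 MAP3 and MAP4 kinases, Map3k9, a mixed lineage kinase of the JNK branch, had 0.14 ± 0.080 with a peak at ZT22.0. Map3k14, the NIK kinase of the noncanonical NF-kappaB pathway, had the largest amplitude of all members and the largest error, 0.30 ± 0.21 (adjusted p = 0.876). Map3k1, Map3k10 and Map4k5 lay between 0.040 and 0.074. The JNK scaffolds Mapk8ip1 and Mapk8ip2 had amplitudes of 0.018 ± 0.048 and 0.029 ± 0.043, with upper limits of 0.14 each, and Mapk1ip1 had 0.11 ± 0.059.

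None of the second-messenger kinases and their subunits passed the rhythm or time test. Camk2b, the beta subunit of CaMKII, had time means from 12.21 ± 0.49 at ZT2 to 12.48 ± 0.45 at ZT18 (SD, n = 10), and 3 of 10 ZT18 libraries lay above all of ZT2. Its inhibitor Camk2n2 had an amplitude of 0.077 ± 0.073 and the methyltransferase Camkmt 0.11 ± 0.059. Prkaca, a catalytic subunit of protein kinase A, went from 11.86 ± 0.17 at ZT2 to 12.01 ± 0.23 at ZT14, with an amplitude of 0.065 ± 0.032 (adjusted p = 0.646). Prkar2a, a regulatory subunit of the same enzyme, had 0.058 ± 0.039. The AMPK gamma subunits Prkag1 and Prkag2 had 0.088 ± 0.050 and 0.024 ± 0.024, and Prkag2 had the lowest upper limit of any member, 0.085. An antisense gene covers 43.7% of the exonic bases of Prkag1, and the strand setting of the counting is not given. The conventional protein kinases C, Prkca and Prkcb, had amplitudes of 0.062 ± 0.096 and 0.053 ± 0.068.

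The casein kinases were held within narrow limits over the day, with amplitudes from 0.025 to 0.042 and upper limits from 0.10 to 0.14. Csnk1a1, casein kinase 1 alpha, had time means between 13.04 ± 0.13 at ZT10 (SD, n = 9) and 13.12 ± 0.16 at ZT6 (SD, n = 10), a 1.05-fold difference. Csnk1g3 and the casein kinase 2 catalytic subunit Csnk2a2 had 0.042 ± 0.032 and 0.025 ± 0.047. These 3 were the only casein kinase genes among the members, and whether their proteins act on PER here was not measured. Per1, Per2 and Per3, whose proteins casein kinase 1 phosphorylates, passed the rhythm test in the same libraries. Per1 had an amplitude of 0.45 ± 0.054, peaking at ZT14.9, and Per2 0.52 ± 0.074 at ZT17.6. Per3 had 0.23 ± 0.048 at ZT17.8 (limma, adjusted p from 9.74e-08 to 0.00841 over the Per genes).

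Of the 6 cyclin-dependent kinase genes, Cdk14, activated by cyclin Y, had the smallest rhythm p, with an amplitude of 0.085 ± 0.039, peaking at ZT2.3 (adjusted p = 0.577). Cdk5, the neuronal kinase active with p35 rather than a cyclin, had 0.022 ± 0.034 and an upper limit of 0.11. Cdk2ap1, Cdk18 and Cdkl2 had 0.059 ± 0.054, 0.058 ± 0.10 and 0.026 ± 0.048. Cdk6, a cell cycle kinase, averaged 17.8 reads and had 0.063 ± 0.14.

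In the AKT and S6 kinase group, Akt1s1, an AKT substrate that restrains mTORC1, had its highest mean at ZT22, 9.34 ± 0.15, and its lowest at ZT18, 9.08 ± 0.15 (SD, n = 10), with 8 of 10 ZT22 libraries above all of ZT18. It did not pass the test of any difference among times (adjusted p = 0.657). Rps6kb1, S6 kinase 1, had 0.074 ± 0.040, Rps6kl1 0.089 ± 0.051 and Rps6ka1, which encodes RSK1, 0.061 ± 0.072. The polarity kinases Mark2, Mark3 and Mark4, which phosphorylate microtubule-associated proteins, had 0.072 ± 0.065, 0.043 ± 0.027 and 0.15 ± 0.11. The salt-inducible kinases Sik2 and Sik3 had 0.093 ± 0.057 and 0.030 ± 0.083. The remaining STK genes, Stk35 and the NDR1 kinase Stk38, had 0.086 ± 0.079 and 0.075 ± 0.069.

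**Figure D3:**
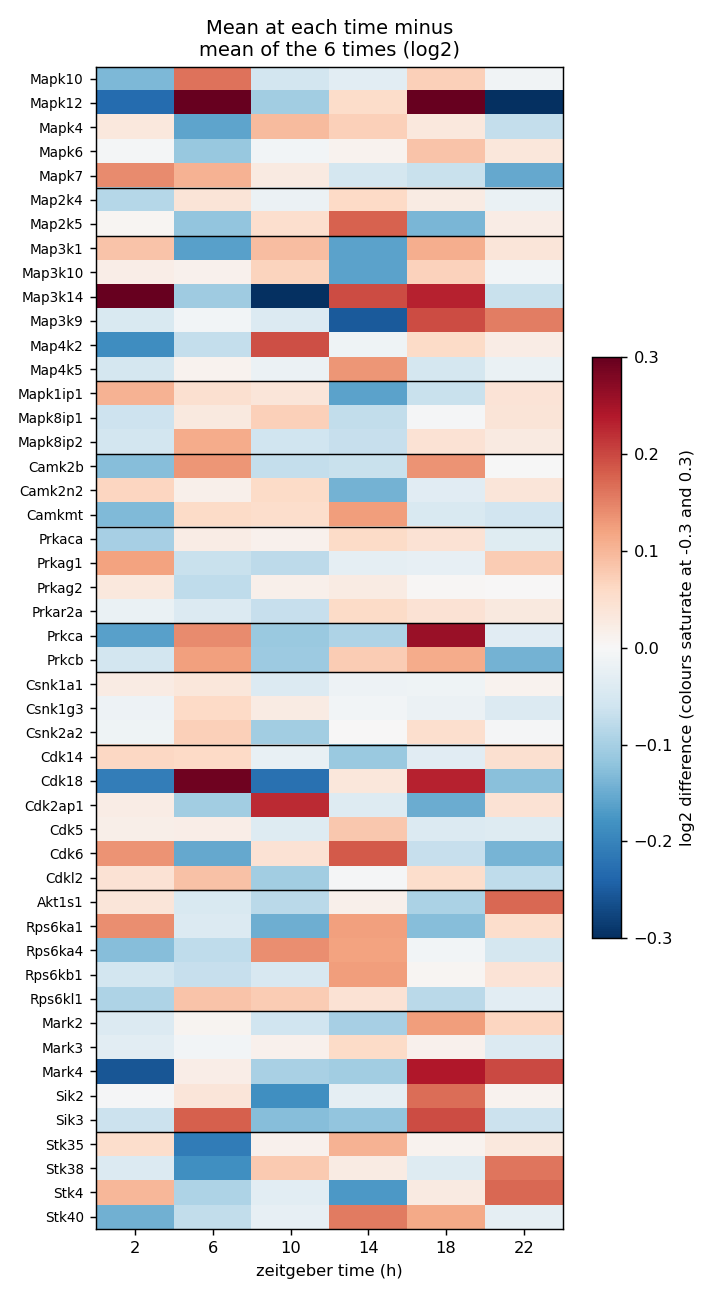
Mean of each time minus the mean of the 6 times (colour, log2, saturating at -0.3 and 0.3) for 48 of the 49 genes (vertical axis, lines between families) against zeitgeber time in hours (horizontal axis), over both sexes with 9 or 10 libraries a time. Stk4 runs from high at ZT22 to low at ZT14, and the strongest colours elsewhere belong to Mapk12, Map3k14 and Cdk18, none of which passed a test.

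No member passed the test between males and females, beside 0.0234% of all genes (1 gene; limma with time as a factor). At an unadjusted p below 0.05 there was 1 member, Mapk1ip1, which was 0.17 ± 0.085 higher in males (means 7.68 and 7.51, interval 0.0021 to 0.34, adjusted p = 0.999) and higher in 5 of 6 times, beside 2.43% of all genes. With limma voom on the recovered reads the number at that level was 0. Males were higher in 24 of 49 members, beside 50.2% of all genes. The 95% interval of the sex difference lay within 0.5 of 0 for 45 members and within 0.25 for 34. Prkag2 had 0.063 ± 0.034 (interval -0.0053 to 0.13) and Cdk6 0.28 ± 0.20 (interval -0.12 to 0.68).

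No member passed the test for a difference of rhythm between the sexes, which called 0% of all genes, and with limma voom the number of members called was also 0. At an unadjusted p below 0.05 there were 2 members, Map3k14 and Mapk12, beside 4.21% of all genes. Both are among the 3 members with the fewest reads per kilobase. Map3k14 had an amplitude of 0.80 ± 0.29 in females and 0.30 ± 0.28 in males, and Mapk12 0.62 ± 0.28 and 0.41 ± 0.27. The test takes amplitude and peak together. Fitted peaks in females and males were ZT20.4 and ZT5.3 for Map3k14, and ZT9.3 and ZT18.7 for Mapk12. Cdkl2, Map2k4 and Rps6ka4 had the next smallest p (adjusted p = 0.741 for each). Fitted peaks of the sexes lay within 4 h of each other in 13 of 49 members (26.5%), beside 32.2% of all genes.

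Levels per length differed widely. On the scale of scaled reads per kilobase of exon, Prkaca had 1607 ± 188 (SD over 59 libraries), Prkcb 975 ± 283, Mapk8ip2 835 ± 130.6 and Csnk1a1 830 ± 80.0. The values of Mapk8ip2 and Csnk1a1 do not differ beyond their spread. Lowest were Map3k14 at 2.96 ± 2.13, Cdk6 at 3.87 ± 1.76 and Mapk12 at 6.69 ± 4.62. Within families the order was wide: Mapk4 had 560 ± 103.6 and Mapk10 363 ± 87.1 beside Mapk7 at 31.9 ± 8.76, and Csnk2a2 had 49.3 ± 8.53 beside Csnk1a1. Stk4 had 279 ± 35.96.

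**Figure D4:**
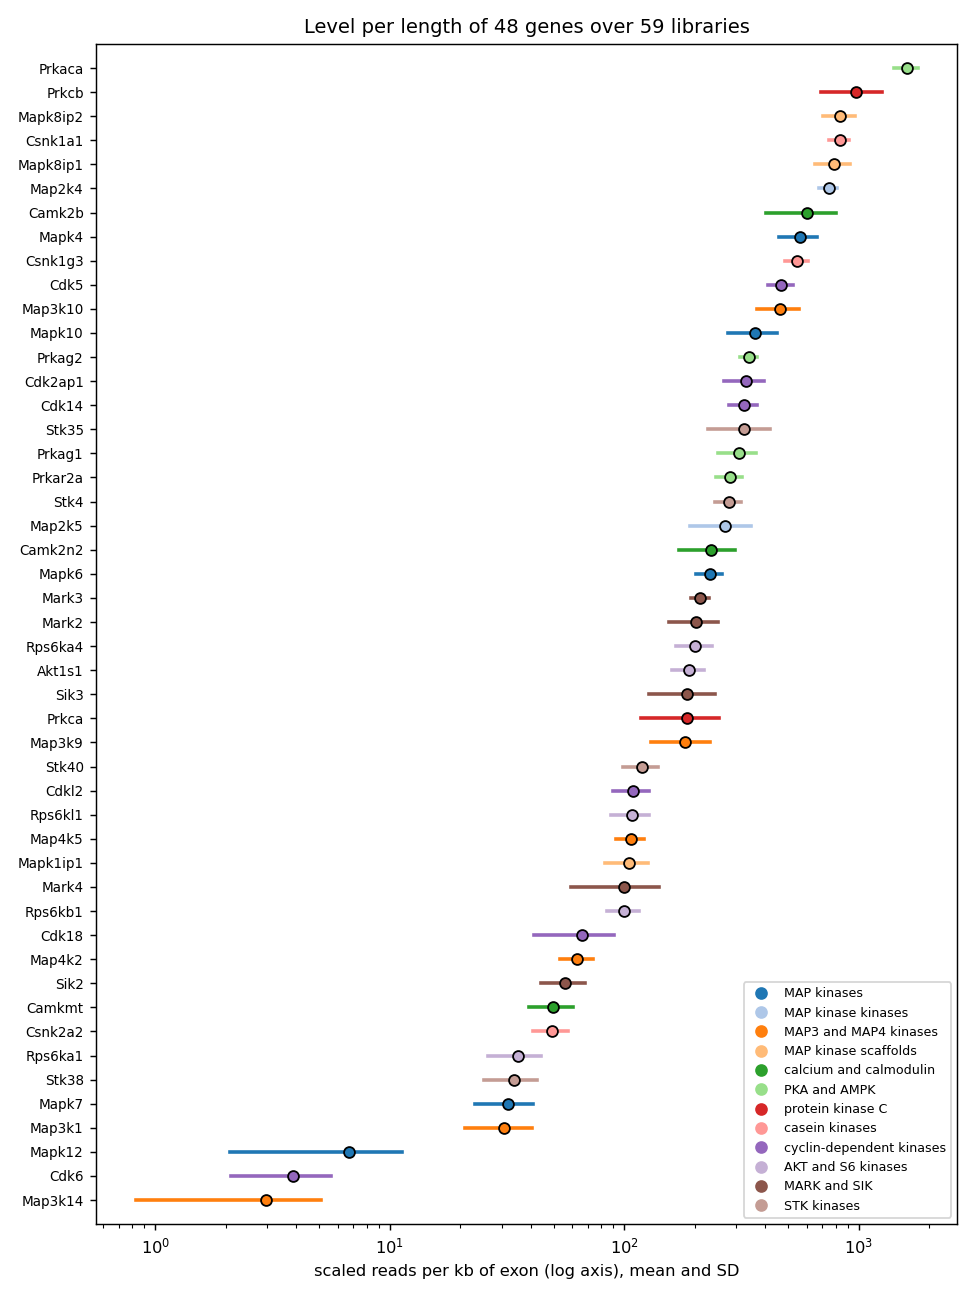
Scaled reads per kilobase of exon (horizontal axis, log scale) of 48 of the 49 genes (vertical axis, in order), as the mean and SD over 59 libraries, coloured by family. Prkaca has 1607 and Prkcb 975, and Mapk12, Cdk6 and Map3k14 lie lowest, under 10.

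The spread between libraries of a group also differed between members. The median SD within groups on the log2 scale was 0.28 over the members and 0.35 over all genes. Prkag2 (0.11), Map2k4 (0.12), Mark3 (0.13), Csnk1a1 (0.15) and Stk4 (0.15) were steadiest. Among well-counted members Mark4 (0.66), Cdk18 (0.54), Prkca (0.53) and Camk2b (0.51) varied most. Mapk12 had the widest spread of all, 1.05.

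Serial number was compared next. In a comparison chosen after the data were seen, with group as a covariate, 29 of 49 members differed between numbers 49 to 60 and 1 to 48 (59.2%), beside 54% of all genes (limma, adjusted p below 0.05). Of these, 16 were higher in 49 to 60, beside 23% of all genes, and 13 were lower, beside 31%. Mark4 had 8.57 ± 0.58 (SD, n = 48) in numbers 1 to 48 and 9.51 ± 0.23 (SD, n = 11) in 49 to 60, a difference of 0.96 ± 0.17. Prkca had 10.47 ± 0.48 and 11.24 ± 0.17 in the same sets, and Camk2b 12.21 ± 0.42 and 12.93 ± 0.19. Cdk18 (0.68), Sik3 (0.62), Map3k9 (0.53), Mark2 (0.50), Camk2n2 (0.49), Mapk10 (0.48) and Prkcb (0.40) were also higher.

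The members lower in numbers 49 to 60 included Stk35, at 11.03 ± 0.36 in numbers 1 to 48 and 10.34 ± 0.25 in 49 to 60. Stk38 (-0.46), Map2k5 (-0.36) and Mapk4 (-0.35) were also lower, and Csnk1a1 (-0.21), Csnk1g3 (-0.18) and Mark3 (-0.18) were lower by less. Stk4 did not pass this test (-0.10 ± 0.054, adjusted p = 0.1003). No member separated the 2 sets of libraries fully, and this too was not counted over all genes. Under scaling by the library total, 27 members were called, beside 2029 of all 4273 genes, and all 27 were higher in 49 to 60. The median difference of all genes moved from -0.054 to 0.36 under that scaling. There Mark4 had 1.37, Prkca 1.17 and Camk2b 1.14, while Stk35 had -0.27 (adjusted p = 0.103), so none of the lower calls held under that scaling. Scaled by the library total without the 6 noncoding genes, 16 members were higher and 13 lower, beside 2335 of all genes called. Stk35 was at -0.71 there (limma, adjusted p = 3.1e-06). With limma voom 17 members were higher and 13 lower, beside 2341 of all genes called.

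**Figure D5:**
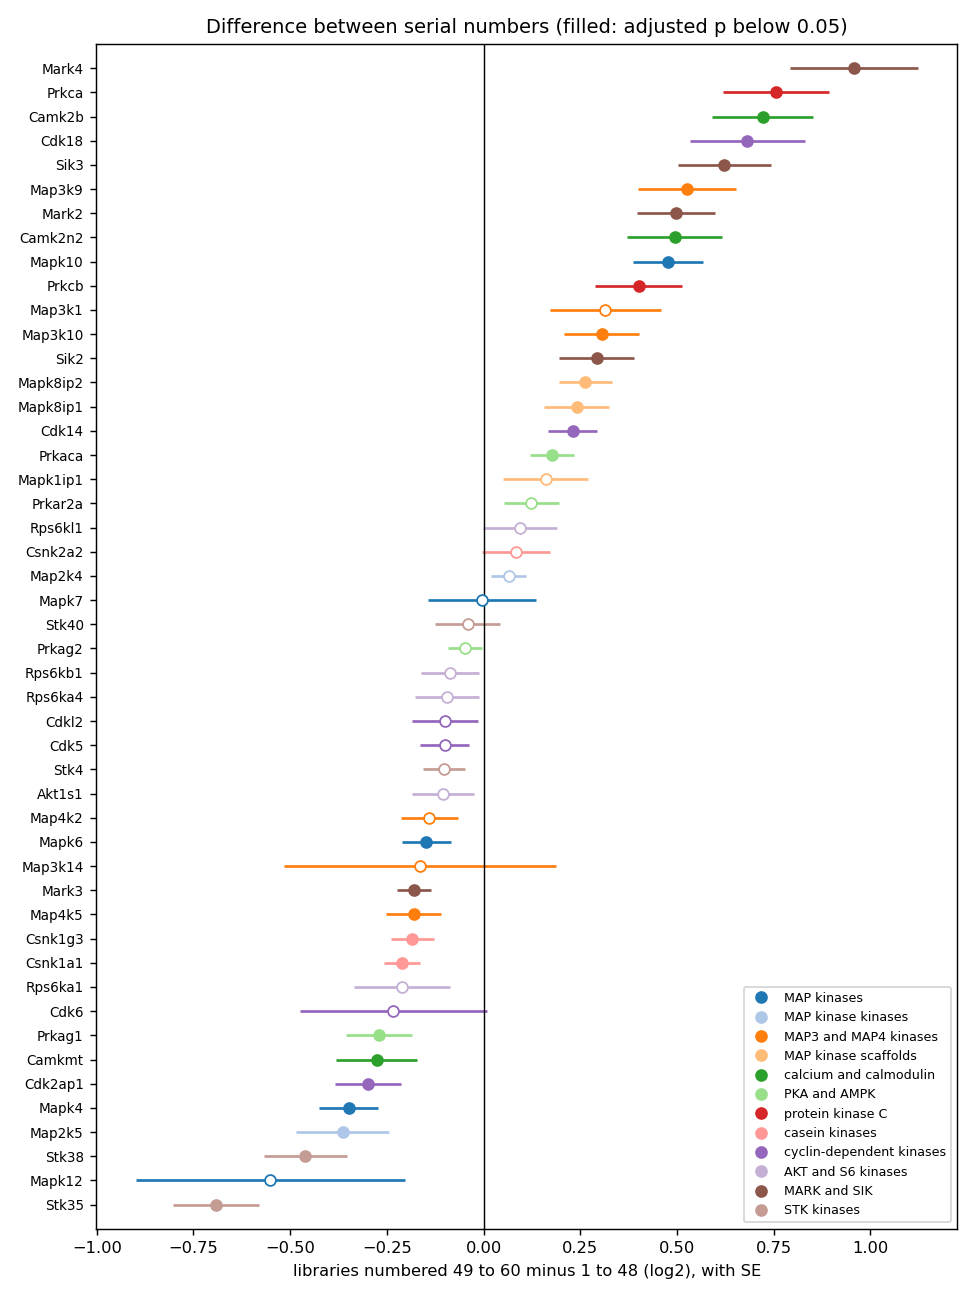
Difference on the log2 scale between serial numbers 49 to 60 (n = 11) and 1 to 48 (n = 48) with its SE (horizontal axis) for 48 of the 49 genes in order (vertical axis), coloured by family and filled where the adjusted p is below 0.05. Mark4 is highest at 0.96 and Stk35 lowest at -0.69. The lower calls are lost when libraries are scaled by their total, while 13 of the 49 are lower with the 6 noncoding genes left out of it.

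Markers of cell types were read beside that difference, since in bulk tissue fewer cells of a type and less RNA per cell cannot be told apart. All 4 tested markers of glutamatergic neurons were higher in numbers 49 to 60, among them Slc17a7 at 0.25, Fezf2 at 0.35 and Cux2 at 0.93. Of 8 markers of GABAergic neurons, 3 were higher and 1 lower, none of 4 astrocyte markers passed, and of 2 microglial markers P2ry12 was lower at -0.27. Their part in the kinase differences was not tested. No marker of the 20 tested passed the 24 h rhythm test (limma), while 4 had an unadjusted p below 0.05, beside 11.4% of all genes. Nearest the threshold were Crh of GABAergic neurons, with an amplitude of 0.44 ± 0.11 (adjusted p = 0.0639), and Fgfr3 of astrocytes, with 0.24 ± 0.065 (adjusted p = 0.0961). In addition, no marker of endothelial cells, choroid plexus, striatal projection neurons or red blood cells was among the genes tested. Slc17a7, the vesicular glutamate transporter that defines cortical glutamatergic neurons, was at 14.9 on the log2 scale.

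Other genes of the same pathways were listed by function, but with earlier results of these data known. They gave 5 rhythm calls among 51 tested of 151 listed, beside 1.9% of all genes. All 5 peaks fell in the dark phase, a share that was not counted over all called genes. None of the 51 passed the test between the sexes (limma, 0 also at an unadjusted p below 0.05). Spry4, an inhibitor of the Ras to ERK pathway, had an amplitude of 0.37 ± 0.070, peaking at ZT18.7 (adjusted p = 0.00158), the only call among 8 Ras and Raf genes. Ddit4, which restrains mTORC1 under stress, had 0.34 ± 0.078 and a peak at ZT16.1 (adjusted p = 0.0181), the only call among 13 PI3 kinase and mTOR genes. The other 3 were the clock genes Per1, Per2 and Per3. Since earlier results were known when the lists were made, the share of calls cannot be read as a trait of these pathways.

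Next to the threshold were the insulin receptor substrate Irs1 at 0.17 ± 0.044 with a peak at ZT17.5 (adjusted p = 0.0501) and the ERK phosphatase Dusp5 at 0.39 ± 0.10 with a peak at ZT16.0 (adjusted p = 0.0656). No call was made among 9 cyclic AMP genes, 5 calcium and calmodulin genes, 4 protein phosphatase genes, 6 cyclin genes or 3 MAP kinase phosphatase genes (limma, 3 of these at an unadjusted p below 0.05: Creb1, Adcy9 and Dusp5). A list of 29 Hippo pathway genes was drawn up after the Stk4 values were seen, and 7 of them were tested. Among these Frmd6, an upstream activator of the pathway, had a rhythm of 0.15 ± 0.033 with a peak at ZT16.7 (limma, adjusted p = 0.00873), some hours from the Stk4 peak. It did not pass the test of any difference among times (limma, adjusted p = 0.0943). That is 1 rhythm call among 7 genes, beside 1.9% of all genes. The remaining 6 did not pass. Wwtr1, which encodes TAZ, had 0.13 ± 0.055 and a peak at ZT23.9 (limma, adjusted p = 0.516). Rassf2, Rassf5, Taok2, Vgll4 and Ccn1 had fitted peaks from ZT11.4 to ZT22.5.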

How the data were processed

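The deposited table, from the authors, gives each gene as log2 (scaled read count plus 1), for 4484 genes in 59 libraries. FastQC, HTSeq, DESeq2 and the build GRCm38 are named per the submitters' processing notes; versions, aligner, annotation and strand setting are not given in the sources used here. Per the labels, RNA was extracted with a Qiagen kit and libraries were made with a stranded total RNA kit. Whole reads were recovered by dividing by the step of each library (100% of values within 0.05 of a whole number) and used for depth, filters and alternatives. Symbols came from GENCODE (4465 of 4484 matched), promoters from RefSeq.

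Genes with at least 10 reads in at least 4 libraries (4273) were fitted by limma (version 3.58.1, R version 4.3.3; trend and robust options on) to these log2 values and adjusted by Benjamini-Hochberg over all genes at 0.05. The 4 tests were a 24 h rhythm (cosine and sine, sex as covariate), any difference among 6 times, male minus female (time as factor), and sex by rhythm. The rhythm and sex tests were tried on simulated data with known effects. There the sex by rhythm test was checked for false calls only, and the test among times was not checked. The members and lists were chosen with earlier results of these data known. Genes named were members called, the 3 of each family with the smallest rhythm p, the 10 largest amplitudes, the 5 smallest p for sex and for the interaction, the 5 highest per kilobase and the 3 nearest the threshold on each side; the other members are named for completeness, and some genes are not reported here. Those picked out by serial number, and the Hippo list, were chosen after values were seen. Replicates were numbered by runs of 12 serial numbers. Alternatives were no filter, a stricter filter (50 reads in 30 libraries), a pseudocount of 10, other scalings, limma voom, no trend, subsets by serial number, a replicate block, 2 principal components, and each library left out.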

Additional observations from a re-analysis of the deposited data

Results flagged for a closer look

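Among the members named for the rhythm, single libraries of Stk4 and Stk40 lay far from the rest of their group, by a gap to the nearest library that was large beside the range of the group. For Stk4 the ZT14 male library with serial number 43 had 10.12 on the log2 scale while the other 4 had 10.47 to 10.59. The ZT22 female library with serial number 60 had 10.71 while the other 4 had 10.91 to 10.93. The ZT2 male library with serial number 49 had 10.62 while the other 4 had 10.85 to 10.94. Both of these libraries belong to serial numbers 49 to 60. At ZT18, over both sexes, the male library with serial number 45 had 10.37 while the other libraries had 10.59 to 10.84. For Stk40 the ZT18 female library with serial number 34 had 8.744 while the other 4 had 9.098 to 9.149. Over all 49 members 33 of 588 groups of 1 time and sex (5.61%) had such a library, where about 1 group in 20 is flagged by chance at the 95% critical value used. The ZT18 value over both sexes is not among those 588.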

How the results depend on the processing

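Stk4 was the only member called for a rhythm and for any difference among times under 8 of 11 alternatives each, among them the filters, the pseudocount, limma voom and the fit without serial numbers 49 to 60. Scaling by the library total gave 0 members for both tests (3 and 2 genes of the whole table, against 81 and 45), as did serial numbers 49 to 60 alone (0 and 1 genes), which have 1 library a group. Without numbers 49 to 60 the whole table gave 52 and 26 genes. With 2 principal components as covariates, 2 members (Cdk14 and Stk4) had a rhythm, beside 359 of all 4273 genes. Of the members 17 differed among times and 10 in rhythm between the sexes, beside 1270 and 720 of all genes. These components come from deviations within groups, so by construction they take out spread but no group difference, and these counts cannot be set against the others. Numbers 49 to 60 alone gave 5 members for the difference of rhythm between the sexes (Cdkl2, Mapk10, Prkca, Prkcb and Sik3; 352 genes), where the main count was 0. In the same libraries Stk4 male minus female turned sign, to 0.0016, as did Stk40 male minus female, to 0.0778. Leaving out 1 library gave 1 member for the rhythm in every case and from 0 to 1 for any difference among times. The cause of each change was not tested.

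Replicate numbers are runs of serial numbers, and the main fits have no term for the run. Libraries of the same run in other groups had a mean correlation of 0.107 (from -0.494 to 0.601), with 148 of 319 above 0.1. For other runs the mean was -0.0264, with 310 of 1276 above 0.1. Libraries of a run were therefore somewhat more alike on average, with wide overlap. With the replicate block 1 member had a rhythm (Stk4, amplitude 0.15, adjusted p = 0.00243), 1 differed among times, and 0 passed each of the other tests. Over all genes the block gave 91 calls for times.

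Depth limits the members with few reads: 2 averaged under 10 reads, and their amplitudes have errors of 0.20 and 0.21.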
